A study of Mus musculus with 104 samples.

Results

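The mice described here were chosen by the level of 1 transcript, Ide, which encodes insulin-degrading enzyme. Levels of Ide in log2 CPM, the log of read counts scaled to a common library total, fell into 3 bands over all the cortex libraries of the series: 55 libraries at 6.75 to 6.99 were called high, 46 at 6.33 to 6.55 middle and 3 at 5.81 to 6.06 low, with limits set in the empty stretches between them. The 3 classes hold every library of the series. The main comparison sets the 55 high libraries against the 46 middle ones, and the 3 low libraries are described beside them. All mice were wild type, on a C57BL/6 background and 6 months old, and the labels name no treatment, transgene or engineered allele in any of them. They came as controls from 13 lines, 4 females and 4 males in each, which the labels name after a gene: Zswim6, Tbc1d8, Gsg1l, Arpp19, Hrk, Rasgef1a, Dach1, Kdm3b, Ppp1ca, Rgs9, Ece2, Pcdh20 and Morf4l1. RNA of the dissected cerebral cortex was sequenced with a stranded mRNA protocol, and a library is named below by its line, its sex and the replicate number in its title.

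Insulin-degrading enzyme is a zinc metallopeptidase of the M16 family that cleaves insulin, amylin, glucagon and amyloid-beta, and it is studied in the brain for its part in amyloid-beta clearance. Btaf1, a neighbour on chromosome 19, encodes an ATPase that removes TATA-binding protein from DNA. Fgfbp3, next to Btaf1, encodes a secreted protein that binds fibroblast growth factors and releases them from the extracellular matrix. As background, a copy number variant that holds Ide and Fgfbp3 has been described within C57BL/6J stocks from DNA. DNA was not measured here, and the part of such a variant in the values below was not tested.

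The high class held 28 females and 27 males, the middle class 23 of each sex, and the low class 1 female and 2 males. Total counts were 3.53 to 34.5 M reads a library in the high class (median 29.5), 25.03 to 34.1 M reads in the middle class (median 29.4) and 27.8 to 34.7 M reads in the low class. Of the high libraries 52 were on plate 1 and 3 on plate 2, against 41 and 5 of the middle libraries. In 3 libraries, all of the high class, the sex-linked transcripts went against the sex label. Summed markers of cortical neurons overlapped, at 15121 to 16423 CPM in the high class and 14857 to 16055 CPM in the middle class. Tbr1, a transcription factor of deep-layer cortical neurons, was at 168 ± 10.2 CPM (SD, n = 55) in the high class and 173 ± 9.51 CPM (SD, n = 46) in the middle class.

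The 2 genes that rose with Ide lie on chromosome 19 (GRCm38), near Ide. On that build Fgfbp3 runs from 36917550 to 36919615 on the minus strand, Btaf1 from 36926079 to 37012752 on the plus strand, and Ide from 37268743 to 37337852 on the minus strand. Fgfbp3 and Btaf1 are 6.46 kb apart and point away from each other. The 256 kb between the end of Btaf1 and the nearer end of Ide hold Cpeb3 (37021291 to 37208601, minus strand) and March5 (37207543 to 37222151, plus strand). The RefSeq promoter windows of Fgfbp3 and Btaf1, from 250 bases before to 50 bases after the start on GRCm38.p6, are shown because these start sites belong to the 2 genes that moved with Ide. Fgfbp3 is at chr19:36919550-36919849 on the minus strand and Btaf1 at chr19:36925829-36926128 on the plus strand, both printed 5′ to 3′, with capitals marking matches on either strand to TGACGTCA (cAMP response element), CCGGAAG (ETS site), GGGCGG (GC box), CCAAT (the motif bound by NF-Y) or TATAAA (the motif bound by TATA-binding protein).
Fgfbp3: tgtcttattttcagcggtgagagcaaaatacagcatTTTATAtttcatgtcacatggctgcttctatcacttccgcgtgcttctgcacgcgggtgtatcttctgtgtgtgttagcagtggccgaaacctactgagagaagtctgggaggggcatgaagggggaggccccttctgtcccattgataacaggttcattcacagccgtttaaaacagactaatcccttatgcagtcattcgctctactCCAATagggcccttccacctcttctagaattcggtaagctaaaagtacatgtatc
Btaf1: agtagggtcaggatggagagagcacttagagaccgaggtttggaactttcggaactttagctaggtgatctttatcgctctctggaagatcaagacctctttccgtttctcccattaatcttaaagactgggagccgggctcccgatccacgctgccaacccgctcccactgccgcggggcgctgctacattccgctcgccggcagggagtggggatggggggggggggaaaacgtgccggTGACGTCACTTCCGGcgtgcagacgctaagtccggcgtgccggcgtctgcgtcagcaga
The Btaf1 window held the cAMP response element beside an ETS match, with no shared base, and 25 CpG dinucleotides. These motifs are in 1.79% and 8.86% of the 32851 promoter windows of the same table. The Fgfbp3 window held 1 TATAAA match, 1 match to the NF-Y motif and 9 CpG dinucleotides. Those motifs are in 13.6% and 37.4% of the windows, whose median CpG count is 7. The TATAAA match was on the opposite strand, near the upstream end of the window and not close to the start. The GC box, present in 35.7% of all windows, was in neither, and the 2 windows shared no motif of the 5. The RefSeq window listed for Ide begins transcription 3.31 kb inside the annotated gene, and its letters are not shown.

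Ide itself chose the classes, so its values are a description with no test. In the high class Ide had a lowest value of 108, a median of 118 and a highest value of 127 CPM. In the middle class the corresponding values were 80.5, 87.2 and 93.9 CPM. The 3 low libraries were at 56.0 CPM (Morf4l1 male 25), 57.5 CPM (Tbc1d8 female 45) and 66.8 CPM (Tbc1d8 male 46). No library lay within 0.05 log2 units of either limit. Just inside and outside the upper limit were a high library at 6.75 and a middle library at 6.55 log2 CPM, and across the lower limit a middle library at 6.33 and a low library at 6.06. The SD within a class was 0.048 log2 units in both the high and the middle class, and counting error alone gives 0.024 and 0.029. Class means were 60.1 ± 5.84 (SD, n = 3), 87.3 ± 2.89 (SD, n = 46) and 118 ± 3.94 (SD, n = 55) CPM, steps of 27.2 and 30.5 CPM. Relative to the low class, the mean was 1.45 times higher in the middle and 1.96 times higher in the high class. Per length, Ide averaged 9.67, 14.1 and 18.99 FPKM, a unit that divides by transcript length, in the same order.

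The classes cut across the lines. Of the 13 lines, 11 held both high and middle mice, so both levels occurred among wild type mice of the same line and age. All 8 Zswim6 mice were high. Tbc1d8 had no high mouse, with 6 middle and 2 low, and Gsg1l had 7 middle and 1 high. Arpp19, Hrk and Rasgef1a each had 7 high mice and 1 middle mouse. The remaining lines were close to even, with Dach1, Kdm3b, Ppp1ca and Rgs9 at 4 and 4, Ece2 and Pcdh20 at 5 middle and 3 high, and Morf4l1 at 1 low, 4 middle and 3 high. Within the 11 mixed lines the mean Ide level of high mice exceeded that of middle mice by 0.40 to 0.49 log2 units. Only those lines, with 47 high and 40 middle libraries, inform a contrast that takes line into account. Sample names carry a number that some mice of a line share, and its meaning is not given: 12 of 18 pairs sharing it (66.7%) were of 1 class, against 171 of 318 other pairs (53.8%) in lines with more than 1 class.

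**Figure D1:**
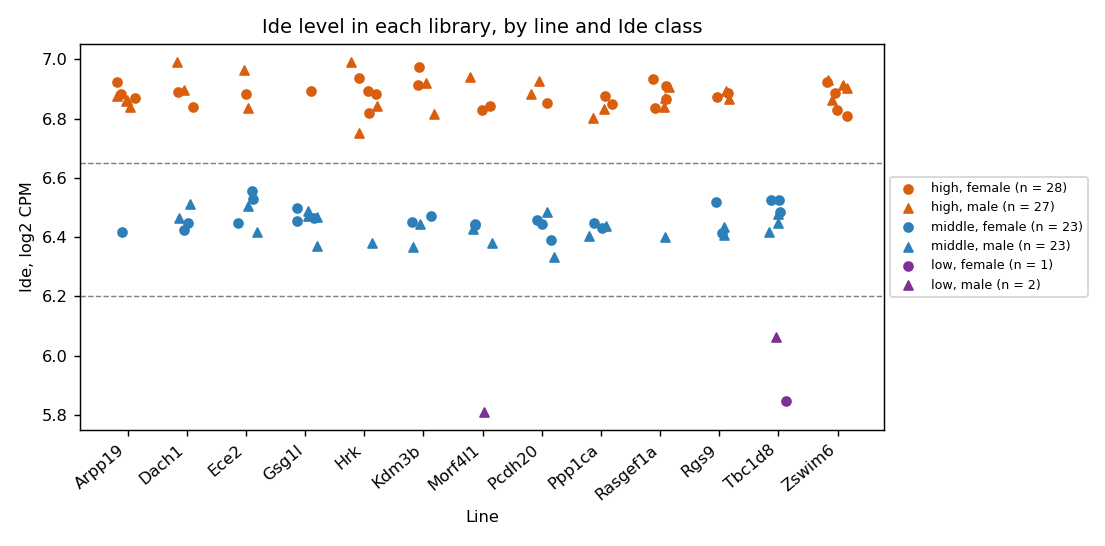
Ide log2 CPM (y axis) of every library in each line (x axis), with colour for Ide class, circles for females and triangles for males; dashed lines mark the class limits. The classes are separated by empty bands of 0.20 and 0.27 log2 units, and 11 lines hold both high and middle mice.

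With sex and line as terms, 2 genes rose and 2 fell in high against middle mice at an adjusted p under 0.05 (edgeR quasi-likelihood test, Benjamini-Hochberg adjustment). That is 0.028% of the 14282 genes tested besides Ide, or 0.014% in each direction. The 2 that rose, Btaf1 and Fgfbp3, were the neighbours described above. The 2 that fell, Ttr and Mfrp, rested on 1 library and are taken up after them.

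Btaf1 was at 78.2, 93.7 and 119.5 CPM (lowest, median and highest) in high mice. In middle mice it was at 61.7, 74.1 and 93.8 CPM. The groups overlapped in part: 27 of 55 high libraries were above every middle library, and a high library exceeded a middle one in 96.4% of all pairs. The log2 difference was 0.31 ± 0.03 (SE, 95% confidence interval 0.25 to 0.37, edgeR adjusted p = 6.69e-13). The difference in line means was positive in 11 of 11 lines, from 0.15 in Gsg1l, where the high class is 1 mouse, to 0.50 in Morf4l1. In FPKM, which allow for length, Btaf1 averaged 9.73 ± 0.97 (SD, n = 46) in middle and 12.2 ± 1.01 (SD, n = 55) in high mice.

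Fgfbp3, a much less abundant transcript at 2.66 FPKM in middle and 3.26 FPKM in high mice, rose by a similar log2 amount. High libraries were at 4.56, 6.10 and 7.68 CPM (lowest, median and highest). The lowest value is that of Kdm3b female 22, the library of 3.53 M reads, and rests on 16 Fgfbp3 reads. That library also gives the lowest high values of Cpeb3 and March5 below. Middle libraries were at 3.43, 5.02 and 6.18 CPM, with a median of 146.5 reads behind the value. A high library exceeded a middle one in 91.3% of pairs, and 25 high libraries were above every middle library. The log2 difference was 0.32 ± 0.04 (SE, 95% confidence interval 0.24 to 0.39, edgeR adjusted p = 5.93e-10). It was positive in 10 of 11 lines, the exception being Arpp19 at -0.08, where the middle class is 1 mouse. A class of 1 mouse also stands behind the positive values of Gsg1l (high), Hrk and Rasgef1a (middle). The differences of Btaf1 and Fgfbp3 were both smaller than that of Ide, the gene that set the classes, at 0.44 log2 units.

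The genes between and around them did not pass the test. Cpeb3, which encodes an RNA-binding regulator of translation, was at 83.0, 100.3 and 111 CPM in high mice and 81.0, 98.7 and 113 CPM in middle mice, and the ranges overlapped almost fully. Its log2 difference was 0.003 (95% confidence interval -0.05 to 0.05). March5, which encodes a mitochondrial ubiquitin ligase, was at 48.2, 54.8 and 59.3 CPM in high mice and 50.004, 54.3 and 62.0 CPM in middle mice, with a log2 difference of 0.02 (-0.01 to 0.05). Cpeb3 and March5 overlap at their ends on opposite strands, and the strand setting of the counting is not given in the sources used here. The intervals of both genes lie below the lower bounds of Btaf1 and Fgfbp3, although these genes sit between Btaf1 and Ide. On the outer sides, Tnks2, a tankyrase 24.1 kb from Fgfbp3, differed by -0.004 (-0.03 to 0.02). Kif11, a mitotic kinesin 38.6 kb beyond Ide, differed by -0.08 (-0.24 to 0.07) at only 1.26 CPM in high mice, so its interval is wide. The other tested genes within 1 Mb (Pcgf5, Hectd2, Ppp1r3c, Hhex, Exoc6, Myof, Cep55, Rbp4, Pde6c, Fra10ac1 and Lgi1) differed by -0.08 (Hhex) to 0.12 (Cep55, 95% confidence interval -0.22 to 0.45). Exoc6, an exocyst subunit on the far side of Ide, differed by -0.004 (-0.04 to 0.04), and Lgi1, a secreted synaptic protein, by 0.001 (-0.02 to 0.03). Within 1 Mb of Ide 2 of 17 tested genes passed, within 2 Mb 2 of 24, and within 10 Mb 2 of 167, in each case Fgfbp3 and Btaf1. Over all 14282 tested genes the share was 0.028%.

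**Figure D2:**
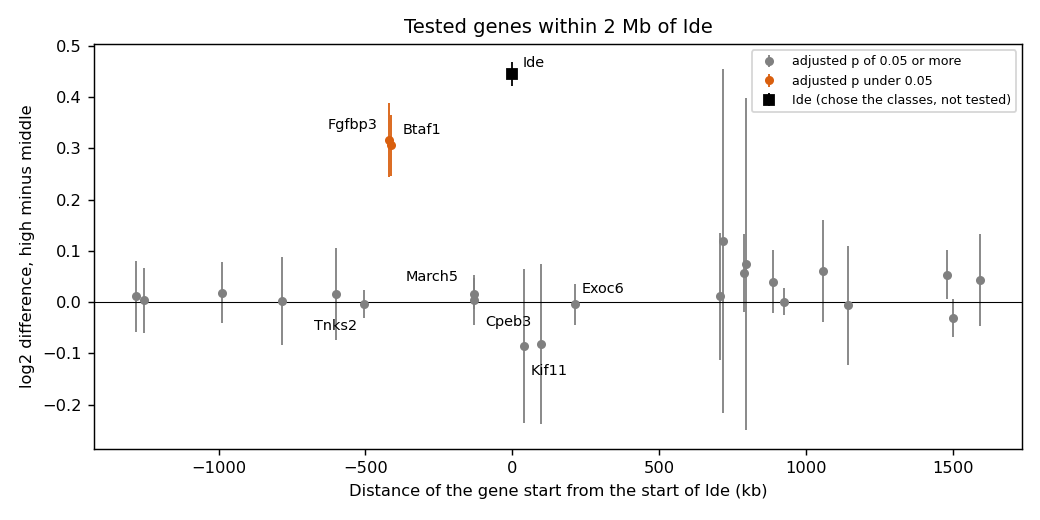
The log2 difference between high and middle mice (y axis, points with 95% confidence intervals) against the distance of each tested gene's start from that of Ide in kb (x axis), with Ide as a square. Fgfbp3 and Btaf1 lie at 0.32 and 0.31, while Cpeb3 and March5, nearer to Ide, lie at 0.003 and 0.02.

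Of the 44 other genes annotated within 1 Mb, 20 of them protein coding, 21 had a row in the part of the gene count table used here, which stops inside a row and is ordered by gene identifier, so genes with later identifiers were not tested on counts. Of the 21, Cyp26c1, Cyp26a1, Gm23300 and Ffar4 had at most 5 reads in any library and were not tested. Rpl10-ps6, a processed pseudogene inside Ide on the same strand, has such a later identifier and was analysed in FPKM. It averaged 0.71 ± 0.24 FPKM (SD, n = 46) in middle and 1.1 ± 0.31 FPKM (SD, n = 55) in high mice, and its log2(FPKM + 0.1) difference was 0.56 (limma adjusted p = 0.00132). Fragments of Ide or of Rpl10 could be assigned to it, so its value is uncertain.

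The 3 low mice extended the order for Btaf1 and Fgfbp3. Btaf1 was at 52.1, 61.0 and 64.1 CPM in Morf4l1 male 25, Tbc1d8 female 45 and Tbc1d8 male 46, and 2 of these were below every middle library. Fgfbp3 was at 3.43, 3.97 and 3.20 CPM in the same libraries, 1 of them below every middle library and all 3 below the middle median. Class means of Btaf1 were 59.1 ± 6.25 (SD, n = 3), 74.6 ± 7.60 (SD, n = 46) and 94.0 ± 7.95 (SD, n = 55) CPM, a ratio of 1.26 at each step. Those of Fgfbp3 were 3.53 ± 0.40, 5.01 ± 0.58 and 6.15 ± 0.66 CPM with the same n, ratios of 1.42 and 1.23. Cpeb3 in the low mice was at 93.2, 106 and 98.9 CPM and March5 at 57.4, 50.7 and 54.4 CPM, inside the middle range.

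In middle against low mice, a comparison added after the values were seen, 1 gene of 14282 (0.007%) passed, and it was Fgfbp3, with a log2 difference of 0.56 ± 0.10 (SE, edgeR adjusted p = 0.00834). Btaf1 differed by 0.30 ± 0.08 (SE, edgeR unadjusted p = 0.000466, adjusted p = 1.00) and was not called. The low class holds 3 mice from 2 lines. With line as a term, the middle mice set directly against them are 4 of Morf4l1 and 6 of Tbc1d8. Without Morf4l1 male 25 the Fgfbp3 difference was 0.54 and without Tbc1d8 male 46 it was 0.47, and in neither case was any gene called.

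**Figure D3:**
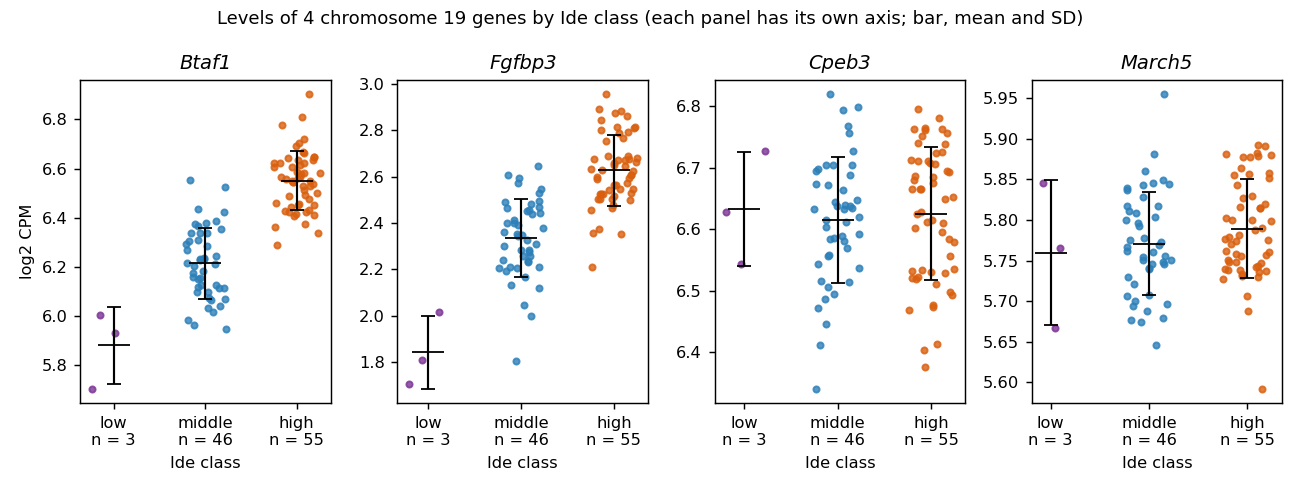
Log2 CPM (y axis, a separate scale in each panel) of Btaf1, Fgfbp3, Cpeb3 and March5 in every library of the low (n = 3), middle (n = 46) and high (n = 55) Ide classes, with black bars for mean and SD. Btaf1 and Fgfbp3 are higher from class to class, with partial overlap, and the ranges of Cpeb3 and March5 coincide in middle and high mice.

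Ttr encodes transthyretin, a thyroid hormone carrier made in large amounts by the choroid plexus, and Mfrp encodes a membrane frizzled-related protein of the retinal pigment epithelium. Ttr was lower in high mice by a log2 difference of -3.26 ± 0.53 (SE, edgeR adjusted p = 7.89e-05) and Mfrp by -1.26 ± 0.25 (SE, edgeR adjusted p = 0.0069). Class medians were nevertheless close, at 0.29 and 0.35 CPM of Ttr in high and middle mice and 0.12 and 0.17 CPM of Mfrp. A single middle library, Rasgef1a male 37, held 275 CPM of Ttr and 3.82 CPM of Mfrp, and it is the only middle mouse of its line. Without it the Ttr difference was -0.35 and the Mfrp difference -0.32 (edgeR adjusted p = 1.00 for both), and Btaf1 and Fgfbp3 were the 2 genes called. Summed choroid plexus markers were at 2.18 to 302 CPM in middle and 2.43 to 24.8 CPM in high mice, and 6 of 6 tested markers had a negative sign, among them Clic6 (-0.93), Folr1 (-0.77) and Kl (-0.29), none of which passed. These values rest on the same library: without Rasgef1a male 37 the Clic6 difference was 0.16, the Folr1 difference -0.20 and the Kl difference 0.05.

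Across the rest of the transcriptome the classes were close. The median log2 difference of all tested genes was 0.0003, and 413 genes (2.89%) had an unadjusted p under 0.05, 221 higher and 192 lower in high mice. The median half-width of the 95% confidence interval was 0.053 log2 units. For 9408 of the 14282 genes the whole interval lay within 0.1 log2 units of 0. Among 5986 genes with a mean of at least 5 log2 CPM this held for 5710. After the 4 genes called, the smallest adjusted p was that of Agbl2, a tubulin carboxypeptidase, at 0.37 ± 0.09 (SE, edgeR adjusted p = 0.164).

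**Figure D4:**
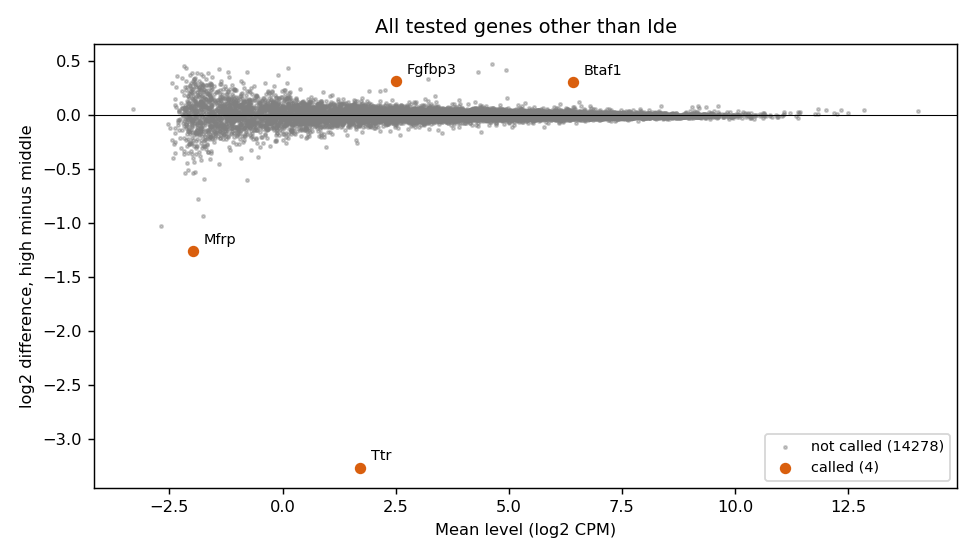
Log2 difference between high and middle mice (y axis) against mean log2 CPM (x axis) for all 14282 tested genes, with the 4 called genes in orange. Btaf1 and Fgfbp3 stand above the other genes of their level, and Ttr and Mfrp rest on 1 library.

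Genes tied to the function of Ide were examined as lists, and none of their members passed apart from Fgfbp3 itself. Over all tested genes 0.028% passed, so 0 calls in lists of these sizes, here and below, do not set them apart. The other M16 metallopeptidases, which include nardilysin (Nrd1), the mitochondrial presequence protease Pitrm1 and the processing peptidase subunits Pmpca and Pmpcb, were called in 0 of 6 cases. Their differences ran from -0.007 to 0.006. Nrd1 was at 174 ± 7.73 CPM (SD, n = 55) in high and 172 ± 8.53 CPM (SD, n = 46) in middle mice, a difference of 0.002 (95% confidence interval -0.03 to 0.03). Of 13 tested peptidases that cleave amyloid-beta, 0 passed, with a median difference under 0.0001. Neprilysin (Mme), the main other amyloid-beta peptidase of the brain, differed by -0.03 (-0.10 to 0.04).

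Of 14 genes of amyloid precursor protein processing, 0 passed. App, the precursor, differed by -0.009 (-0.04 to 0.02), and Bace1, the beta-secretase, by -0.01 (-0.04 to 0.02). Precursors of peptides that Ide can cleave were tested for 6 of 12 members, and 0 passed. All 6 had a negative sign, with a median of -0.02, and Sst, the somatostatin precursor, was at 113 ± 9.16 CPM (SD, n = 55) in high and 116 ± 10.3 CPM (SD, n = 46) in middle mice. Ins1 and Ins2, the insulin genes, were among the precursors that were too low to test.

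Insulin and insulin-like growth factor ligands, receptors and binding proteins gave 0 of 12 calls. The insulin receptor, Insr, differed by -0.01 (-0.05 to 0.02) and Igf1r by -0.03 (-0.08 to 0.01), while Igfbp3, a binding protein, differed by 0.08 (0.006 to 0.15, edgeR unadjusted p = 0.035, adjusted p = 1.00). Downstream of the receptor 0 of 37 genes passed, with a median of -0.002. Irs2, an insulin receptor substrate, differed by -0.001 (-0.17 to 0.16), Akt2 by 0.04 (-0.02 to 0.10) and Foxo1, a transcription factor held in check by insulin, by 0.05 (-0.007 to 0.11). The 20S proteasome, an intracellular protease complex, gave 0 of 13 calls, between -0.03 and 0.03.

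Genes of fibroblast growth factor signalling were tested beside Fgfbp3, and 1 of 18 passed, Fgfbp3 itself. The receptors Fgfr1, Fgfr2 and Fgfr3 differed by 0.00 (-0.05 to 0.05), -0.02 (-0.07 to 0.03) and 0.007 (-0.04 to 0.05). Fgf1, a broadly acting ligand, differed by 0.04 (0.005 to 0.08, edgeR unadjusted p = 0.0264, adjusted p = 1.00), and Fgfbp1, a paralog of Fgfbp3, by -0.11 (-0.45 to 0.22) at under 1 CPM.

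Markers known to differ between C57BL/6 substrains were tested for 7 genes, and 0 passed. Nnt, a mitochondrial transhydrogenase whose partial deletion marks C57BL/6J, differed by -0.02 (-0.06 to 0.03) with line as a term; without it the Nnt difference was -0.17 (edgeR adjusted p = 0.0619). Gabra2, a GABA-A receptor subunit, averaged 51.4 ± 6.59 CPM (SD, n = 55) in high and 63.3 ± 18.8 CPM (SD, n = 46) in middle mice. Its difference was -0.06 (-0.15 to 0.03) with line as a term and -0.30 without it (edgeR adjusted p = 0.00934).

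Cell type lists also gave no call other than Ttr. Oligodendrocyte markers had a positive sign in 10 of 10 tested genes, with a median of 0.05 against 0.0003 over all genes, and 0 passed. Mal, a myelin proteolipid, differed by 0.12 (0.02 to 0.23) and Mbp, myelin basic protein, by 0.04 (-0.03 to 0.11). The oligodendrocyte score, the mean log2 CPM of the markers, had a median of 6.53 in high and 6.45 in middle mice, with overlapping ranges of 6.02 to 6.84 and 6.17 to 6.68. In a cortex homogenate more cells of a type and more RNA per cell cannot be told apart. Endoplasmic reticulum chaperones had a negative sign in 13 of 13 and heat shock genes in 9 of 9, with medians of -0.02 for each, and 0 of either passed. Members of a list are not independent, and a shared sign at this size is a description.

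**Figure D5:**
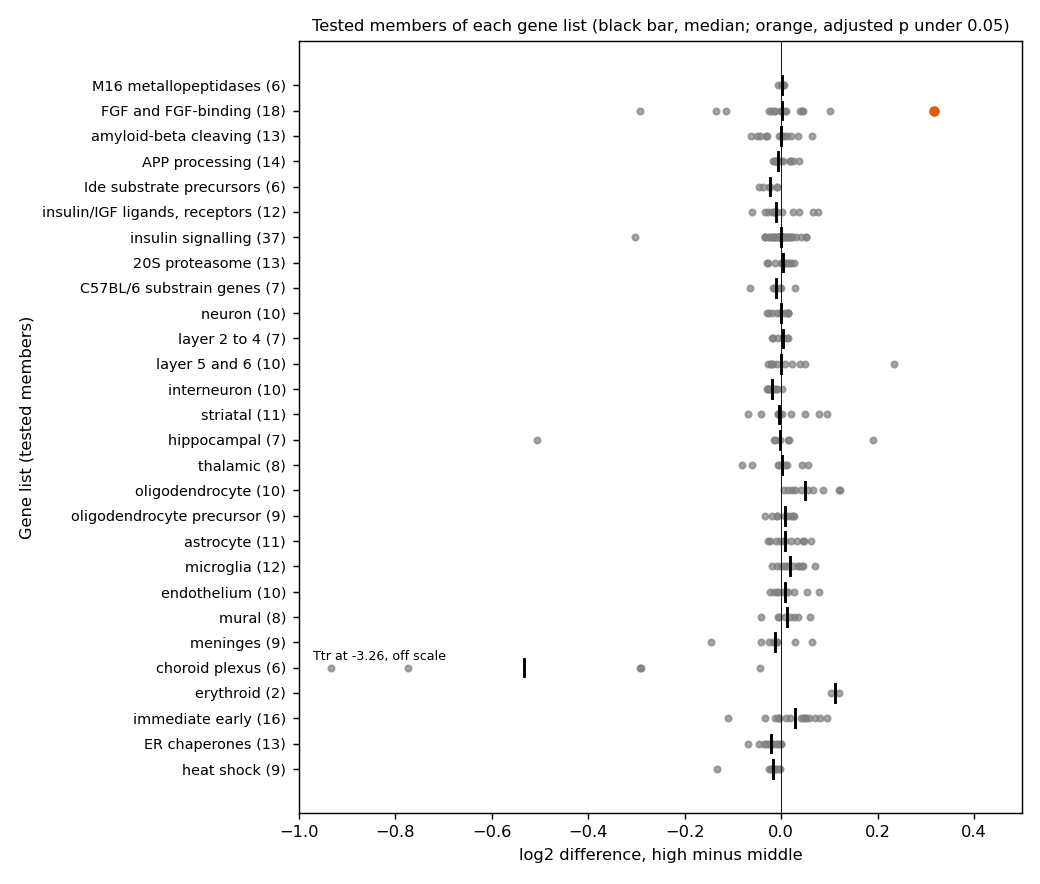
Log2 difference between high and middle mice (x axis) of the tested members of each gene list (rows, number of members in brackets), with black bars for medians and orange for genes called. Apart from Fgfbp3 and Ttr (off the scale at -3.26) no member was called, and list medians other than those of the choroid plexus and erythroid lists lie within 0.05 of 0.

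The difference between high and middle mice was compared between the sexes. No gene passed (0% of 14282, edgeR quasi-likelihood test), with 791 (5.54%) at an unadjusted p under 0.05, and DESeq2 called 2, the Y-linked genes Uty and Ddx3y. Without the 3 libraries that went against their sex label, edgeR again called 0. All 3 are of the high class, DESeq2 was not rerun without them, and their part in the 2 Y-linked calls was not tested. The male-to-female change in the class difference was 0.12 ± 0.05 (SE, edgeR unadjusted p = 0.0156, adjusted p = 0.878) for Btaf1 and -0.02 ± 0.06 (SE) for Fgfbp3.

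What is left of Ide variation within a class was small, and the genes most like it were found by correlating residuals after line, sex and class over all libraries of the 3 classes, which share 1 scaling. The 5 most like Ide were Arhgap25 (r = 0.57), Dixdc1 (0.56), Golga3 (0.54), Nrp1 (0.54) and Pptc7 (0.53), none of them on chromosome 19, beside a median absolute r of 0.128 over all genes. Btaf1 had an r of 0.23 and Fgfbp3 of -0.38. The r between Btaf1 and Fgfbp3 was -0.19. Cpeb3, which was not called between classes, had an r of 0.40 and March5 of 0.06.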

How the data were processed

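The members and the gene lists were chosen with earlier results of these data known. The deposited tables hold read counts per gene and FPKM values, which the authors made with STAR 2.7.3a and HTSeq 0.10.0 on GRCm38/mm10, per the submitters' processing notes; the counting mode, strand setting and filters are not given in the sources used here. The Ensembl count table as used here stops inside a row, and its 19563 complete gene rows were used, of which 19514 matched a gene name. Library totals, CPM and the number of genes tested rest on these rows; RefSeq counts and FPKM were alternatives. Counts were scaled by the trimmed mean of M values over all libraries, and log2 CPM had a prior count of 2. After edgeR's expression filter 14283 genes remained. Coordinates are those of GENCODE on GRCm38.

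High and middle libraries were compared with edgeR 4.0.16 (quasi-likelihood F test, Ide class, sex and line as terms, R 4.3.3), with Benjamini-Hochberg adjustment over all tested genes but Ide and a threshold of 0.05. SEs come from the F statistic, and intervals are at 95%. Each library is 1 mouse by the design text; no 2 libraries of a line agreed within sampling noise. Named genes were those called, the tested genes within 1 Mb of Ide, up to 4 members of a list with the smallest p, and the 5 genes with the largest absolute correlation with Ide. Other list members were named for their known roles, and Agbl2 and Rpl10-ps6 singly, after their values were seen. The scripts were tested on simulated data. Alternatives included DESeq2 1.42.0, limma 3.58.1 on the deposited FPKM values with pseudocounts of 0.1 and 1, other filters and omitted lines or libraries.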

Additional observations from a re-analysis of the deposited data

Results flagged for a closer look

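Single libraries far from the others of their line, or of their line and Ide class, were sought in 77 groups of 4 to 10 libraries, and 6 were found; chance gives about 1 in 20 groups. In Ide, Gsg1l male 13 was at 6.37 log2 CPM, and the nearest of the other middle libraries of that line was at 6.45. In Btaf1, Kdm3b female 21 of the high class was at 6.64 log2 CPM, with the nearest at 6.44. Ttr stood apart in Rasgef1a male 37 (8.10 log2 CPM, nearest 1.02), Arpp19 male 1 (4.28, nearest 0.25) and Rgs9 female 44 (0.061, nearest -1.12). Mfrp stood apart in Rasgef1a male 37 (1.96 log2 CPM, nearest -1.46), the same library as for Ttr.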

How the results depend on the processing

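Under all 34 settings Btaf1 and Fgfbp3 remained called. The setting that omits libraries within 0.05 log2 units of the class border left out 0 libraries, so it repeats the main fit. The Btaf1 difference lay between 0.22 and 0.33 and the Fgfbp3 difference between 0.23 and 0.35, with adjusted p at most 0.0247 and 0.0172. The number of genes called for high against middle, 4 in the fit reported, was 2 with DESeq2, with a stricter filter on low counts, with tissue list scores as terms, with the title's replicate number as a block, with the number in the sample name as a random block, without Rasgef1a male 37, and without it and Arpp19 male 1; in each the 2 were Btaf1 and Fgfbp3. It was 3 with RefSeq counts, 3 with either FPKM fit (Rpl10-ps6 added, Ttr not called and Mfrp not tested), 5 with no filter on low counts (Otx2 added) and 5 without the libraries against their sex label (Agbl2 added). Ttr and Mfrp did not pass the stricter filter, and the choroid plexus list used among the tissue scores holds Ttr itself. DESeq2 gave p values for 14281 genes and none for Ttr. None of these fits is therefore a new test of Ttr. Mfrp was not tested on the RefSeq counts. Leaving out each line in turn gave 2 to 5, with 2 without Rasgef1a. The cause of the other differences was not tested. The replicate block left 2 calls; its numbers do not pair the mice, since only 34 libraries correlated best with their own number and the median correlation was -0.086. For the difference between the sexes DESeq2 called 2 genes and edgeR 0. For middle against low, leaving out each low library gave 0 to 1 calls. Only 87 libraries inform the main contrast, and the low class has 3 mice.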
